A study of Homo sapiens with 24 samples.

Results

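The genes described here are 42 genes of the replication stress response and DNA repair, followed through 12 libraries of the human melanoma line A375 and 12 of the human lung adenocarcinoma line A549. They were listed by name and matched to Ensembl identifiers, and each of the 42 was found among the 21386 genes of the files. By role they are 12 genes of the ATR branch, 7 of the ATM branch and of break end sensing, 4 of end resection and helicases, 8 of homologous recombination, 8 of the Fanconi core complex, and 3 of the Fanconi ID2 complex with its deubiquitinase. Each line was sequenced in 4 groups of 3 biological replicates. shMCM7 cells carried a lentiviral, doxycycline (Dox)-inducible shRNA against MCM7 in the pRSIT17 vector, delivered at a multiplicity of infection (MOI) of 1.4. They were compared with cells that the labels and the study's RNA methods call parental, although the study's text elsewhere also names a scrambled shRNA control. Each of these was kept with 1 µg/ml Dox for 72 h or without Dox (noDox). All libraries came from cells held at the G1/S boundary by a double thymidine block, a treatment that depletes a nucleotide and stalls replication forks, so the controls carried that block as well. The shMCM7 cells were selected populations and not described as clones.

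MCM7 is a subunit of the MCM2-7 helicase, which is loaded at replication origins and unwinds DNA at the fork. When a fork stalls, single-stranded DNA recruits the kinase ATR, which activates CHEK1 through the mediators claspin and timeless. Double-strand ends are sensed by the MRE11-RAD50-NBN complex and signalled by the kinase ATM, and can be repaired by homologous recombination after resection. At interstrand crosslinks and stalled forks the Fanconi core complex attaches ubiquitin to the FANCD2-FANCI (ID2) pair, and USP1 takes it off. Many of these genes are transcribed mainly in S phase through E2F sites in their promoters.

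MCM7 was checked first, because it is the gene the shRNA targets. The target printed in the sample labels is shown here to place it in the gene. Capitals mark the bases that would pair with guide positions 2 to 8 if the antisense strand is the guide.
shMCM7 target: cagaggaggatttCTACGAAa
In the GENCODE transcripts (GRCh38) its 21 bases were found whole in 1 gene, MCM7, on chromosome 7 between 100097728 and 100097836 on the minus strand. The site spans an intron, and it joins exons 8 and 9 in 1 transcript and exons 7 and 8 in the other 4. It lies in the coding sequence in 3 of the 5 MCM7 transcripts that hold it. The longest stretch of it in a transcript of any of the 42 genes was 13 bases, in RAD9A. The 7 capital bases occurred somewhere in the transcripts of 5 of the 42 genes (11.9%), against 6.02% of all genes of the files. In the comparison below, FANCI, TIMELESS and RBBP8 of these 5 fell, ATM rose and BARD1 did not pass. No account was taken of transcript length.

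In CPM (counts scaled to each library's total after TMM normalization), MCM7 stood at 76.8, 76.4 and 77.2 in the A375 shMCM7 Dox libraries and at 342 to 370 in the 6 A375 parental libraries. The shMCM7 noDox libraries had 131, 353 and 359, so the first of them goes against the other 2. The log2 fold change of MCM7 with Dox was -1.87 ± 0.30 (SE, edgeR, FDR = 0.0012), and -2.21 ± 0.052 without that library (FDR = 3.6e-07). In A549 the level was low in 3 libraries with 3 different labels, at 95.3 CPM in shMCM7 Dox 3, 99.8 in shMCM7 noDox 2 and 88.6 in parental noDox 2, and lay between 299 and 339 CPM in the other 9. The A549 labels and the MCM7 counts therefore disagree, and A549 values are given below by label, and library by library. The A375 libraries had total counts of 146656792 to 283721575, and the A549 ones of 17911338 to 23452823. Of the line markers, SOX10 was at 501 to 677 CPM in A375 and at 0 in A549, and KRT8 at 60.7 to 94.0 and 1829 to 2758 CPM. S100B, S100A1, KRT18, KRT19, CDH1 and EPCAM also differed in the direction of the labels. Other markers on the same lists did not tell the lines apart or went the other way. MITF, the melanocyte factor, overlapped between the lines (26.7 to 45.1 CPM in A375, 35.7 to 52.0 CPM in A549). The pigment genes MLANA and TYR were at or near 0 in both lines. The lung factor NKX2-1 reached 0.41 CPM in A375 but no more than 0.054 CPM in A549. All 42 genes were expressed in both lines, between 7.71 and 215 CPM in A375 and between 6.77 and 273 CPM in A549.

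In A375 shMCM7 cells, 24 of the 42 genes were lower with Dox than without, 3 were higher and 15 did not pass the test (edgeR's quasi-likelihood test, Benjamini-Hochberg FDR under 0.05, 3 against 3 libraries). Among all 16087 genes tested, 22.4% were lower and 20.6% higher at the same FDR. The median log2 fold change of the 42 genes was -0.24, beside 0.0045 for all genes tested, and 35 of them had a negative value. Most changes were small. At the study's thresholds of at least 1.5-fold with p under 0.01 and FDR under 0.05, which 6.45% of all genes passed downward and 5.58% upward, FANCI and TIMELESS were lower and 0 of the 42 genes were higher. Both hold the 7 shRNA bases shown above, and the part of that match in their values was not tested. The 3 that rose were ATM, ATR and RAD50. Without the noDox library of low MCM7, 22 were lower and 2 higher, with FANCI and TIMELESS still past the 1.5-fold thresholds. In the same comparison 13 of 15 G2/M genes and 5 of 15 G1/S genes were lower. By flow cytometry the study reports nearly all cells in G1 after the block, and a slight G1 enrichment on MCM7 depletion. The part of cell cycle position in the values above was not tested. In bulk RNA, fewer cells that express a gene and less RNA per cell cannot be told apart.

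**Figure D1:**
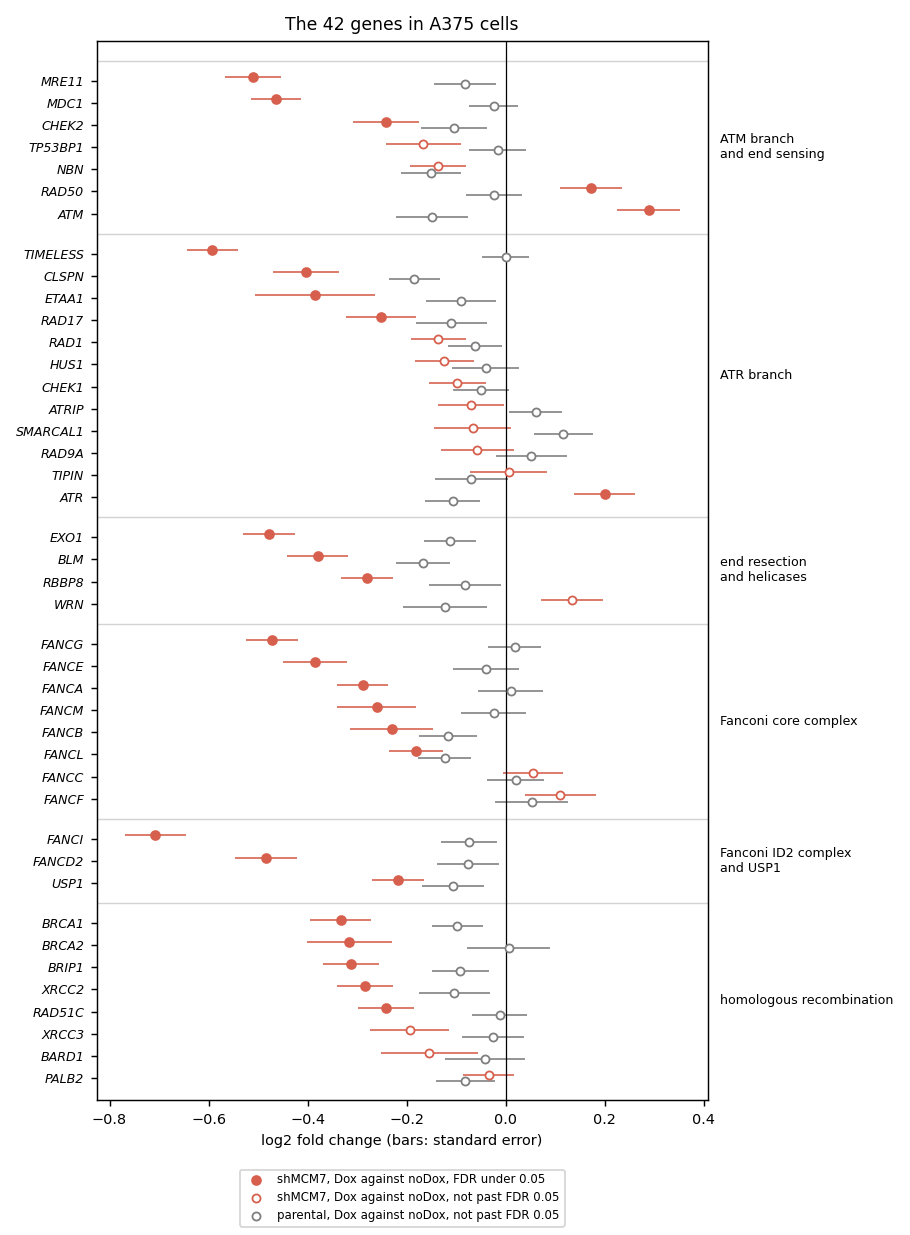
Log2 fold change of each of the 42 genes with Dox in A375 shMCM7 cells (red) and in A375 parental cells (grey), grouped by role; bars are standard errors, filled points have an FDR under 0.05 and open points do not. The filled red points lie mostly left of 0, from -0.71 (FANCI) to 0.29 (ATM), and 0 grey points are filled.

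Of the 12 genes of the ATR branch, 4 were lower and 1 was higher. Of the mediators that link ATR to CHEK1, TIMELESS and CLSPN were lower and TIPIN did not pass. TIMELESS, which travels with the fork and protects it, was at 97.5, 105 and 103 CPM with Dox and at 149, 156 and 156 CPM without. Its 6 parental libraries lay between 144 and 152 CPM, so the Dox libraries of the shMCM7 cells were below all others (log2 fold change -0.59 ± 0.052, SE, FDR = 6.6e-05). CLSPN, which encodes claspin, was at 76.2, 80.3 and 69.2 CPM against 95.9, 97.2 and 105 CPM (-0.40 ± 0.066, FDR = 0.0013). TIPIN, the partner of timeless, had a value near 0 (0.0060 ± 0.078, FDR = 0.96).

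ATR itself moved the other way. It was at 80.3, 93.4 and 87.0 CPM with Dox and at 77.1, 75.3 and 74.3 CPM without, and the groups did not overlap, but 2 of the 6 parental libraries, at 79.1 and 81.9 CPM, lay near or above the lowest Dox library. The rise of 0.20 ± 0.062 on the log2 scale (FDR = 0.026) lost the call when shMCM7 Dox replicate 2 (0.15, FDR = 0.070), Dox replicate 3 (FDR = 0.063), noDox replicate 2 (FDR = 0.086) or noDox replicate 3 (FDR = 0.079) was left out. Its partner ATRIP, which brings it to single-stranded DNA, did not pass (-0.071 ± 0.067, FDR = 0.42), and shares 27.9% of its exon bases with TREX1. ETAA1, the other activator of ATR, was at 14.6, 14.9 and 13.1 CPM with Dox and at 14.8, 20.8 and 19.995 CPM without. The noDox library at 14.8 CPM is the one with low MCM7, and it overlaps the Dox libraries. ETAA1 was called (-0.39 ± 0.12, FDR = 0.028), but not without Dox replicate 3 (FDR = 0.11), noDox replicate 2 (FDR = 0.11) or noDox replicate 3 (FDR = 0.093). ETAA1, ATM and RAD50 are given in full after their values were seen.

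Of the clamp that activates ATR and its loader, 1 of 4 genes passed, beside 22.4% of all genes tested that were lower. RAD17, the clamp loader, was lower (-0.25 ± 0.071, FDR = 0.018), at 21.6 to 23.0 CPM with Dox and 24.4 to 28.7 CPM without, a call lost without noDox replicate 2 (FDR = 0.092) or 3 (FDR = 0.064). The clamp subunits RAD9A, HUS1 and RAD1 had log2 fold changes of -0.058, -0.12 and -0.14 and did not pass. The effector kinase CHEK1 was at 58.7, 63.1 and 55.7 CPM with Dox and at 62.9, 63.2 and 63.6 CPM without. Dox library 2 reached the level of the noDox libraries, and the difference did not pass the test (-0.098 ± 0.057, FDR = 0.20). SMARCAL1, which remodels stalled forks, did not pass either (-0.067 ± 0.078, FDR = 0.52).

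**Figure D2:**
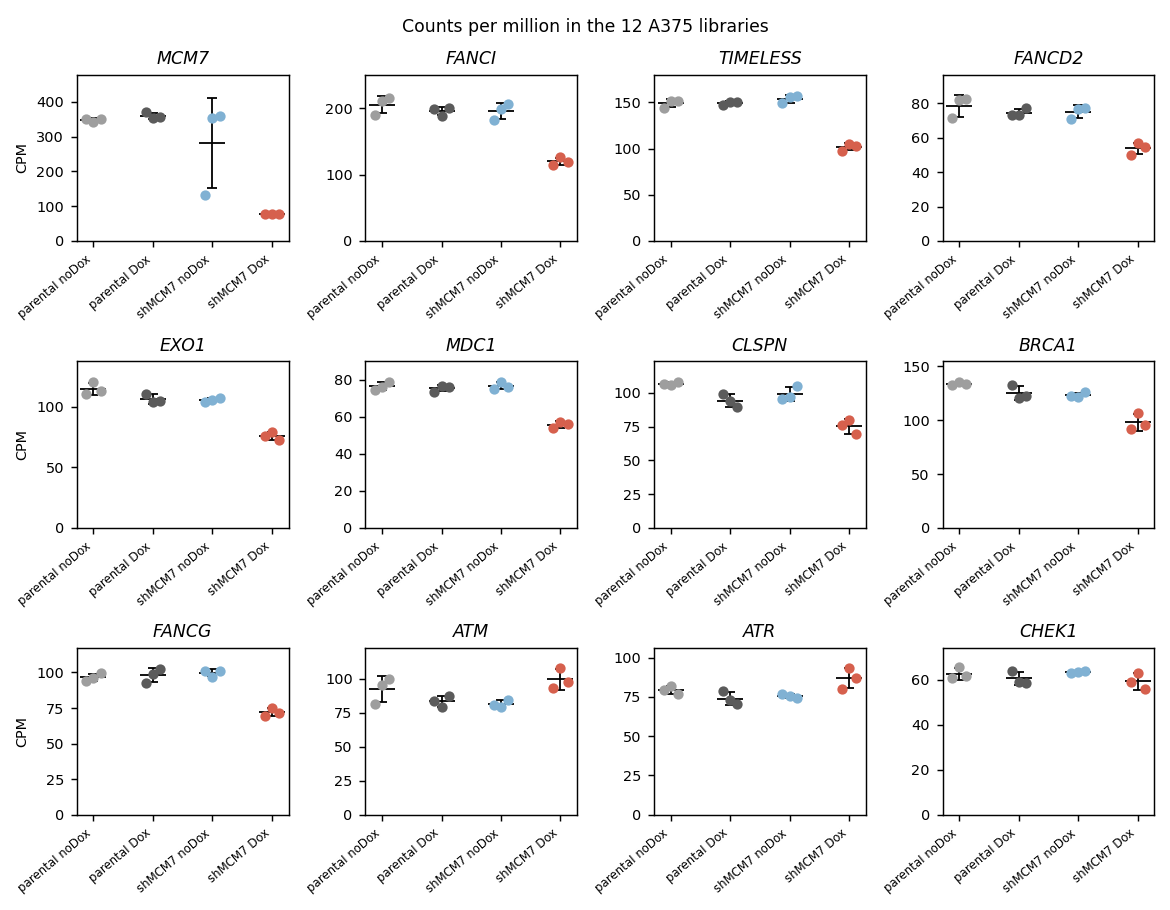
CPM of MCM7 and 11 of the 42 genes in the 12 A375 libraries, by group; points are libraries, bars the mean and SD (n = 3), each panel with its own axis from 0. FANCI, TIMELESS, FANCD2, EXO1, MDC1, FANCG, CLSPN and BRCA1 are lower in the 3 shMCM7 Dox libraries than in any of the other 9. Most genes shown were named for a small p in the shMCM7 comparison. The share of all genes separated in this way was not counted. ATM and ATR are highest there on average, and CHEK1 overlaps. MCM7 in shMCM7 noDox 1 is at 131 CPM.

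Among the sensors of broken ends, MRE11 and its partners did not move together. MRE11, the nuclease of the complex, was at 35.9, 38.5 and 35.8 CPM with Dox and at 50.2, 53.9 and 52.7 CPM without, below all 6 parental libraries, which lay between 49.8 and 58.4 CPM (log2 fold change -0.51 ± 0.056, FDR = 0.00017). RAD50, which holds the ends together, was at 78.0, 86.1 and 83.7 CPM with Dox against 68.5, 77.3 and 74.0 CPM. The groups did not overlap, but the rise was at the edge of the test (0.17 ± 0.062, FDR = 0.0498) and lost the call without a filter (FDR = 0.053) and without any of 5 libraries (FDR from 0.057 to 0.14), shMCM7 Dox 1 being the exception. RAD50 also shares 79.7% of its exon bases with the readthrough gene AC116366.3, so reads could be split between them. NBN, the regulatory subunit, did not pass (-0.14 ± 0.056, FDR = 0.075).

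ATM, the kinase that this complex activates, was at 93.4, 108 and 97.3 CPM with Dox and at 80.4, 79.2 and 84.6 CPM without. Its Dox libraries were above all the noDox ones of the same cells (0.29 ± 0.063, FDR = 0.0054), while the parental libraries without Dox ranged from 81.7 to 99.6 CPM and reached into the Dox range. MDC1, the scaffold that ATM signalling builds on around a break, was at 53.9, 57.4 and 56.0 CPM against 75.3, 79.0 and 76.3 CPM, a gap larger than the spread of either group (-0.46 ± 0.051, FDR = 0.00016). CHEK2, the effector kinase of ATM, was lower too (-0.24 ± 0.067, FDR = 0.016), a call lost without Dox replicate 3 (FDR = 0.056) or noDox replicate 2 (FDR = 0.070). TP53BP1, which restrains resection, did not pass (-0.17 ± 0.075, FDR = 0.10) but did with the replicate number as a block (FDR = 0.020) and without the noDox library of low MCM7 (FDR = 0.033). It shares 28.7% of its exon bases with TUBGCP4.

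The genes of end resection and unwinding were lower in 3 of 4 cases. EXO1, the long-range resection nuclease, was at 76.0, 79.5 and 72.3 CPM with Dox and at 104, 106 and 107 CPM without (-0.48 ± 0.053, FDR = 0.00017). BLM, the helicase that works beside it, was at 28.9, 32.2 and 28.4 CPM against 39.3, 38.2 and 38.8 CPM (-0.38 ± 0.062, FDR = 0.0012). RBBP8, which encodes CtIP and starts resection with MRE11, was at 51.4, 55.2 and 52.7 CPM against 62.7, 66.2 and 64.3 CPM (-0.28 ± 0.052, FDR = 0.0024). In each of these 3 genes the Dox libraries were below the noDox ones without overlap. The share of all genes whose groups did not overlap was not counted, here or for other genes described in this way. The related helicase WRN had a positive value that did not pass (0.13 ± 0.062, FDR = 0.11).

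Of the 8 homologous recombination genes, 5 were lower, and all 8 values were negative. BRCA1, which acts from resection to strand invasion, was at 92.1, 106 and 95.5 CPM with Dox and at 122, 122 and 126 CPM without (-0.33 ± 0.062, FDR = 0.0023). BRIP1, the helicase that binds BRCA1, was at 36.4, 38.4 and 34.4 CPM against 44.7, 45.0 and 45.9 CPM (-0.31 ± 0.057, FDR = 0.0022). Both were below every parental library as well, where BRCA1 ran from 121 to 136 CPM and BRIP1 from 43.4 to 49.6 CPM. BRCA2, a mediator of strand invasion, was lower by a similar amount with a larger error (-0.32 ± 0.086, FDR = 0.016), and lost the call without Dox replicate 3 (FDR = 0.066). XRCC2 (-0.28) and RAD51C (-0.24), subunits of complexes that aid strand exchange, passed. BARD1, the partner of BRCA1, and PALB2, its link to BRCA2, did not pass (-0.15 and -0.035), nor did XRCC3 (-0.19, FDR = 0.073), which shares 76.7% of its exon bases with KLC1. XRCC3 passed with the replicate block (FDR = 0.014), in the fit over all 12 A375 libraries (FDR = 0.048) and without Dox replicate 1 (FDR = 0.029).

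The Fanconi core complex, the ubiquitin ligase of the pathway, had 6 of 8 genes lower and 0 higher. FANCG was at 69.4, 75.3 and 71.5 CPM with Dox and at 101, 97.0 and 101 CPM without (-0.47 ± 0.052, FDR = 0.00017). FANCE, the subunit that contacts FANCD2, was at 10.5, 10.4 and 10.6 CPM against 13.6, 13.4 and 14.1 CPM (-0.39 ± 0.064, FDR = 0.0013). FANCA was at 65.4, 65.6 and 63.4 CPM against 82.7, 77.3 and 77.3 CPM (-0.29 ± 0.051, FDR = 0.0018), and shares 23.6% of its exon bases with ZNF276. For these 3 subunits each Dox library was below each noDox library. How many of all genes were separated in this way was not counted. FANCL, the catalytic subunit (-0.18), FANCM, the translocase that anchors the complex to DNA (-0.26), and FANCB (-0.23) passed at FDR values of 0.024, 0.026 and 0.048, and each lost the call in at least 3 of the fits that left out a library. FANCC (0.055 ± 0.060) and FANCF (0.11 ± 0.071) did not pass.

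The target of that ligase is the pair of FANCI and FANCD2. FANCI (chromosome 15 from 89243949 to 89317261, plus strand, GRCh38) was at 115, 126 and 119 CPM with Dox and at 182, 198 and 206 CPM without. The 6 parental libraries lay between 188 and 215 CPM. The noDox library of low MCM7, at 182 CPM, was below all 6 of them and above the Dox libraries. FANCI fell by 0.71 ± 0.062 on the log2 scale and had the smallest p of the 42 genes (FDR = 6.5e-05). Its partner FANCD2 was at 50.2, 56.8 and 54.4 CPM against 70.9, 76.9 and 77.5 CPM (-0.48 ± 0.063, FDR = 0.00037). USP1, which removes ubiquitin from the pair, was lower by less (-0.22 ± 0.053, FDR = 0.0089). All 3 genes of this group fell.

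The promoter windows of 4 of the genes that fell and of ATR and ATM are shown. They set genes that were lower beside the kinases of the pathway that were higher. The 4 are examples and not those of smallest p. MDC1, EXO1 and MRE11, with smaller p than FANCD2 and CLSPN, have no GCGGGAA in their windows and are not shown. Each window shown runs from 250 bases before to 50 after the RefSeq start (GRCh38.p14), on the gene's strand. Capitals mark matches, on either strand, to the letters GCGGGAA (an E2F-like core), CCAAT (the CCAAT box, ATTGG on the other strand) and TTTGAA (a cell cycle homology region, or CHR, element). No letters of these 3 motifs overlapped here. The windows are TIMELESS at chr12:56449377-56449676, minus strand, FANCG at chr9:35079893-35080192, minus strand, FANCD2 at chr3:10026187-10026486, plus strand, CLSPN at chr1:35769929-35770228, minus strand, ATR at chr3:142578684-142578983, minus strand, and the upstream of the 2 ATM windows at chr11:108222817-108223116, plus strand.
TIMELESS: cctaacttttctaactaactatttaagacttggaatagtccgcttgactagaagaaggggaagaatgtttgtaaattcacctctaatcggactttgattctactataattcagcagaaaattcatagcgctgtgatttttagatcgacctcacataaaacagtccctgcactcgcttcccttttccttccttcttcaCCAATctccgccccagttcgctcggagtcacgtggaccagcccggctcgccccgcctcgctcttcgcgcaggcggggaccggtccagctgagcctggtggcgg
FANCG: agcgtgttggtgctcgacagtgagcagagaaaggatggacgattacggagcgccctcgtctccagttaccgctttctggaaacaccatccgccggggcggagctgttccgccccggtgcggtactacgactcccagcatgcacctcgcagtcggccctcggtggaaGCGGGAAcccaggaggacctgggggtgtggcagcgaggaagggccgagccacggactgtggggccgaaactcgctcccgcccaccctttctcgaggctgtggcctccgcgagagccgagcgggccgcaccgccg
FANCD2: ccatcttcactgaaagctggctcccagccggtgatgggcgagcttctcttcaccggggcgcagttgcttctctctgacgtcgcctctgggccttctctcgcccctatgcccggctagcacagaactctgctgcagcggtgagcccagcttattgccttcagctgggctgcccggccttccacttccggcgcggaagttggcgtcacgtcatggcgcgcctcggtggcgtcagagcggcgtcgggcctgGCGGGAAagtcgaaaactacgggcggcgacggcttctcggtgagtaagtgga
CLSPN: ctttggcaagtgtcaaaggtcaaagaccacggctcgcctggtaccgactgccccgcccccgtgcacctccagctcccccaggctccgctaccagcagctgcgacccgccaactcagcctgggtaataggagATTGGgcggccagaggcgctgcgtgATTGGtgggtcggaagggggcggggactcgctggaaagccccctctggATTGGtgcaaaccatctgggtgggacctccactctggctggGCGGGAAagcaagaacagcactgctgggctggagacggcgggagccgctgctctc
ATR: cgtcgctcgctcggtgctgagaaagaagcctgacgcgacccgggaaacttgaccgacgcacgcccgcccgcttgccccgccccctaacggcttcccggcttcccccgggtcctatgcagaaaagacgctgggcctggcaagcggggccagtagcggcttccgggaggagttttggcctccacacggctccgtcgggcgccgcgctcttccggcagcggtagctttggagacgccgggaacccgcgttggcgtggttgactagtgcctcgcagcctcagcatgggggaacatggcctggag
ATM: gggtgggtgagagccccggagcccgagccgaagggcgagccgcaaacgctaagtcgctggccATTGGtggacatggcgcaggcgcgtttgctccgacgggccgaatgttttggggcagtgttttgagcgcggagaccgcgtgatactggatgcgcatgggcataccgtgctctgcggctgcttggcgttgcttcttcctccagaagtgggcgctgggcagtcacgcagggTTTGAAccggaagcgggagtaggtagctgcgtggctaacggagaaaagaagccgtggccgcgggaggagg

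GCGGGAA was found 84, 2 and 5 bases before the start of FANCG, FANCD2 and CLSPN. CLSPN also held 3 CCAAT boxes, at 119, 94 and 46 bases before the start, and TIMELESS 1, at 53 bases. The ATR window held 0 of the 3 motifs, and the ATM window a CCAAT box 188 bases before the start and TTTGAA 20 bases before it. A window was in the table for 38 of the 42 genes, all but FANCI, HUS1, NBN and WRN. At least 1 window with GCGGGAA was found for 9 of the 23 genes that fell (39.1%), for 4 of the 12 that did not pass (33.3%) and for 0 of the 3 that rose, against 7.82% of the 27305 genes of the table. CCAAT was in 13 of the 23 (56.5%) and 9 of the 12 (75.0%), against 39.7% of all genes, and TTTGAA in 4 of the 23 (17.4%), against 18.2%. A match is a description of these letters, not of a bound site.

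The Dox treatment alone was followed in parental A375 cells. There 0 of the 42 genes passed in either direction, as did 0 (0%) of the 15993 genes tested (edgeR), with 4 of the 42 and 1121 of all genes at an unadjusted p under 0.05. DESeq2's Wald test also called 0 of the 42, but 36 of all genes higher and 9 lower. With the replicate block, edgeR called 0 of the 42, and 44 of all genes higher and 13 lower. Log2 fold changes ran from -0.19 (CLSPN) to 0.12 (SMARCAL1), with a median of -0.072, and 34 of the 42 were negative, so the parental cells had small values in the same direction. CLSPN (-0.19 ± 0.051) and BLM (-0.17 ± 0.055) had the lowest values, whereas TIMELESS (-0.00019 ± 0.047) and FANCG (0.018 ± 0.053) were near 0.

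The difference between the Dox effects of shMCM7 and parental cells was tested in all 12 A375 libraries. It was negative for 12 of the 42 genes and positive for 2 at an FDR under 0.05, against 16.5% and 13.5% of the 16334 genes tested, and 28 did not pass. FANCI (-0.64 ± 0.085, FDR = 0.00014) and TIMELESS (-0.59 ± 0.063, FDR = 3.1e-05) were past the 1.5-fold thresholds, which 6.17% of genes passed downward and 4.37% upward. The largest values after these were in FANCG (-0.49), MDC1 (-0.44), MRE11 (-0.43), FANCD2 (-0.41) and EXO1 (-0.37). FANCE, FANCA, BRCA1, RAD51C and BRIP1 also passed, of which BRCA1, RAD51C and BRIP1 lost the call in most of the fits that left out a library. ATM (0.44 ± 0.10, FDR = 0.0063) and ATR (0.31 ± 0.083, FDR = 0.013) were the 2 positive ones, and both kept the call in each of the 17 alternatives. The rise in shMCM7 cells alone was smaller, at 0.29 for ATM and 0.20 for ATR, so part of each difference lies in the parental libraries. That rise passed in 12 of 12 alternatives for ATM and in 8 of 12 for ATR. BLM (-0.22, FDR = 0.052) and CLSPN (-0.22, FDR = 0.061), which fell in shMCM7 cells, did not pass here. Without parental noDox replicate 1, 0 genes were past the 1.5-fold thresholds, and 1 was without shMCM7 Dox replicate 1, noDox replicate 2 or noDox replicate 3.

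Before induction, shMCM7 and parental cells differed in 0 of the 42 genes, beside 1.9% of 16093 genes higher and 1.07% lower (edgeR, 6 of the 42 at an unadjusted p under 0.05). DESeq2's Wald test likewise called 0 of the 42, beside 562 of the 16093 genes higher and 382 lower. The same-numbered libraries of these groups deviated together. The fit with the replicate block called 1352 of the 16093 genes higher and 1226 lower. In it SMARCAL1 was higher (0.17 ± 0.049, FDR = 0.031) and ATM (-0.18 ± 0.046, FDR = 0.014), BRCA1 (-0.12 ± 0.036, FDR = 0.031) and EXO1 (-0.12 ± 0.038, FDR = 0.035) were lower. ATM was also lower without parental noDox replicate 1 (-0.27, FDR = 0.039), a fit that called 122 of 16166 genes lower. With Dox, shMCM7 cells differed from parental cells in 25 of the 42 genes, 21 lower and 4 higher, against 24.8% and 23.2% of 16086 genes. FANCI had a value of -0.71 ± 0.053 there. ATM (0.25), WRN (0.25), ATR (0.23) and RAD50 (0.16) were the higher ones, and 0 of the 4 passed without parental Dox replicate 2, and 2 without parental Dox replicate 3 or shMCM7 Dox replicate 2. This comparison shares its shMCM7 Dox libraries with the first, so its values are not independent of it.

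The levels of the 42 genes were compared with each other per kilobase of exon, in the A375 parental noDox libraries. EXO1 (27.8 ± 1.19 CPM per kilobase, SD, n = 3), FANCG (26.7 ± 0.712), FANCI (26.5 ± 1.69) and TIMELESS (25.6 ± 0.718) led, and neighbours in this order differed by less than the larger SD of the pair. FANCM (2.49 ± 0.0870), BARD1 (1.95 ± 0.0360) and FANCC (1.80 ± 0.00864) were lowest. Scaled to the longest transcript instead, FANCI came first (43.3 ± 2.77) and FANCC rose to 5.03, rank 35 of the 42.

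**Figure D3:**
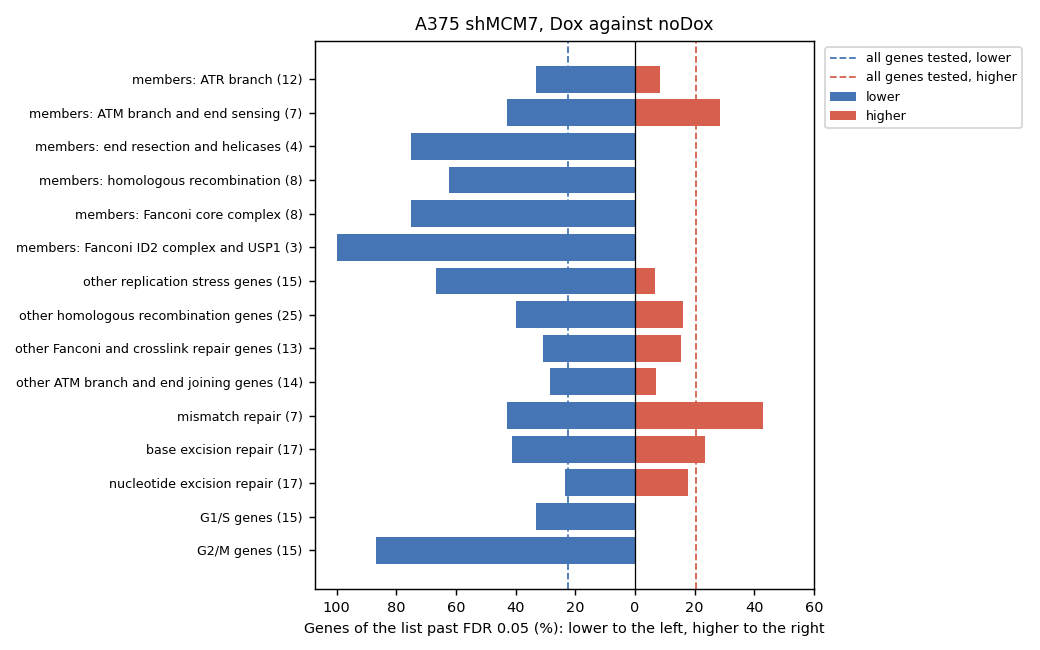
Share of each gene list that passed at an FDR under 0.05 with Dox in A375 shMCM7 cells, lower to the left and higher to the right, with the number of genes tested in brackets; dashed lines give the shares of all genes tested, 22.4% lower and 20.6% higher. The bars on the left exceed the dashed line in every list of the 42 genes, and the G2/M list is the longest of the other lists.

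Related repair genes that are not among the 42 were counted in the same A375 shMCM7 comparison, in which 22.4% of all genes tested were lower and 20.6% higher. Of 15 other replication stress genes, 10 were lower and 1 higher. RPA1, which coats single-stranded DNA, was lower (-0.50, FDR = 0.00022), as were the ubiquitin ligase RAD18 (-0.39) and RHNO1 (-0.34), which works with the clamp, whereas WEE1, the kinase that holds CDK1 back, was higher (0.50, FDR = 0.00061). Of 25 other homologous recombination genes, 10 were lower and 4 higher. The Holliday junction nuclease GEN1 (-0.58) and the nuclease subunit EME1 (-0.42) were lower, and ZSWIM7, of the Shu complex, was higher (0.57). Of 13 other Fanconi and crosslink repair genes, 4 were lower and 2 higher, and the catalytic subunit of polymerase zeta, REV3L (0.67, FDR = 9.9e-05), and its partner MAD2L2 (-0.59, FDR = 0.00018) went opposite ways. FAAP24 (-0.66) and CENPS (-0.23) were lower.

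Of 14 other ATM branch and end joining genes, 4 were lower and 1 higher, with LIG4, the ligase of end joining, higher (0.45) and DCLRE1C, which encodes Artemis, lower (-0.56), as were POLQ (-0.36) and NHEJ1 (-0.27). Mismatch repair had 3 lower and 3 higher of 7, with PMS1 (0.27), MLH3 (0.53) and PMS2 (0.23) higher. Base excision repair had 7 lower and 4 higher of 17, among them PARP1 (-0.36), XRCC1 (-0.37), MBD4 (-0.30) and NEIL3 (-0.37). Nucleotide excision repair had 4 lower and 3 higher of 17, near the shares of all genes tested (22.4% lower and 20.6% higher). Its DDB2 (-0.45) and CETN2 (-0.35) were lower and ERCC6 (0.46) and ERCC2 (0.43) higher. The medians of these 4 lists were between -0.076 and 0.051 on the log2 scale, beside -0.32 for the other replication stress genes, -0.051 for the other homologous recombination genes and 0.00065 for the other Fanconi genes.

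Of the cell cycle lists, the G2/M list had 13 of 15 genes lower and a median of -0.52. PLK1 (-0.85), CENPE (-0.85), AURKA (-0.75) and CCNB1 (-0.92), all used in mitosis, had the smallest p values. PLK1 was at 52.9, 50.2 and 46.7 CPM with Dox and at 86.4, 88.3 and 94.7 CPM without, so it was below each noDox library by more than the spread. The G1/S list had 5 of 15 lower, with CDC6 (-0.44), TYMS (-0.35), MCM4 (-0.32) and RRM2 (-0.38) first by p, and a median of -0.074.

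In A549, the comparisons by label called 0 of the 42 genes. Between the libraries labelled shMCM7 Dox and shMCM7 noDox, 0 of the 42 passed in either direction (edgeR, 0% of 13550 genes, with 0 of the 42 and 61 of all genes at an unadjusted p under 0.05, and DESeq2 also 0 of the 42). Log2 fold changes ran from -0.17 to 0.14, with standard errors from 0.081 to 0.30. In parental A549 cells 0 of the 42 passed as well (edgeR, 0% of 13494 genes, 2 of the 42 and 1137 of all genes at an unadjusted p under 0.05). There DESeq2's Wald test called 0 of the 42, and 14 of all genes higher and 0 lower. Without parental noDox replicate 3, RAD9A (0.70, FDR = 0.036) and XRCC3 (0.49, FDR = 0.046) were higher. That fit called 382 of 13590 genes higher and 1 lower, and it kept parental noDox 2, a library of low MCM7. Leaving out the 3 libraries whose MCM7 lay below 0.5 of the median of their label group also left 0 calls in either comparison. It takes out the 1 shMCM7 Dox library with low MCM7, so both remaining shMCM7 arms lack low MCM7 and the count says nothing about its loss.

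Since the labels and MCM7 disagree, the genes are also given library by library. The 3 libraries of low MCM7 are shMCM7 Dox 3, shMCM7 noDox 2 and parental noDox 2, and values are given in that order, with the range over the other 9 libraries and without a test, because libraries cannot be grouped by a measured outcome. FANCI was at 224, 242 and 254 CPM, beside 239 to 274 CPM, so shMCM7 Dox 3 was the lowest of the 12 and the other 2 lay among the rest. TIMELESS was at 208, 210 and 220 CPM, beside 187 to 202 CPM, so its 3 values were the highest of the 12, opposite in side to the A375 shMCM7 Dox libraries. FANCD2 was at 82.0, 83.0 and 84.6 CPM, beside 73.0 to 84.7 CPM. FANCG (91.2, 93.4 and 88.8 CPM, beside 74.5 to 97.6), EXO1 (68.4, 74.2 and 74.5, beside 64.3 to 81.9) and MDC1 (39.4, 39.1 and 39.4, beside 34.3 to 44.4) lay within the range of the others. So did MRE11, BLM, CLSPN, FANCE and FANCA, apart from the 1 value of CLSPN in parental noDox 2 (61.1 CPM, beside 50.8 to 60.5) and of FANCE there (6.77 CPM, beside 6.94 to 9.06).

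BRCA1 was at 143, 138 and 149 CPM in those 3 libraries, beside 117 to 138 CPM, and BRIP1 at 49.3, 55.3 and 55.3 CPM, beside 44.7 to 53.8 CPM. ATR was at 55.1, 54.2 and 58.7 CPM, beside 47.7 to 58.3 CPM. CHEK1 was at 67.8, 69.5 and 75.3 CPM, beside 48.6 to 64.1 CPM, and so was highest in them. RBBP8 was lowest in them, at 50.4, 51.9 and 50.9 CPM, beside 60.1 to 78.3 CPM. RBBP8 was also lowest in the A375 shMCM7 Dox libraries, whereas BRCA1, lowest there too, was at or above the top of the range here. The 3 libraries were singled out by their MCM7, so these values are a description and not a comparison of groups.

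A few genes outside the rule for named genes stood out in the same libraries and were chosen after their values were seen. How many of all genes set these 3 libraries apart in the same way was not counted, for these genes or for those above. FANCC, a subunit of the Fanconi core complex, was at 44.2, 43.1 and 43.8 CPM, beside 21.6 to 27.6 CPM in the other 9 A549 libraries. In A375 it was between 22.6 and 25.9 CPM in all 12 libraries, those with Dox and shMCM7 included. TP53BP1 was at 92.4, 91.1 and 100 CPM, beside 60.5 to 70.7 CPM, so its 3 values were the highest of the 12. In A375 the shMCM7 Dox libraries were at 86.1, 96.9 and 97.5 CPM and overlapped the other 9, which lay between 95.6 and 114 CPM. ATM was highest in the 3 libraries (69.2, 61.9 and 71.6 CPM, beside 47.9 to 57.8), on the same side as in A375. ETAA1 was lowest in them (17.1, 18.5 and 19.7 CPM, beside 24.1 to 30.5), also on the same side. NBN was lowest in them too (77.2, 81.0 and 85.3 CPM, beside 89.1 to 115). Line and depth differ together between the A375 and A549 libraries and cannot be told apart.

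**Figure D4:**
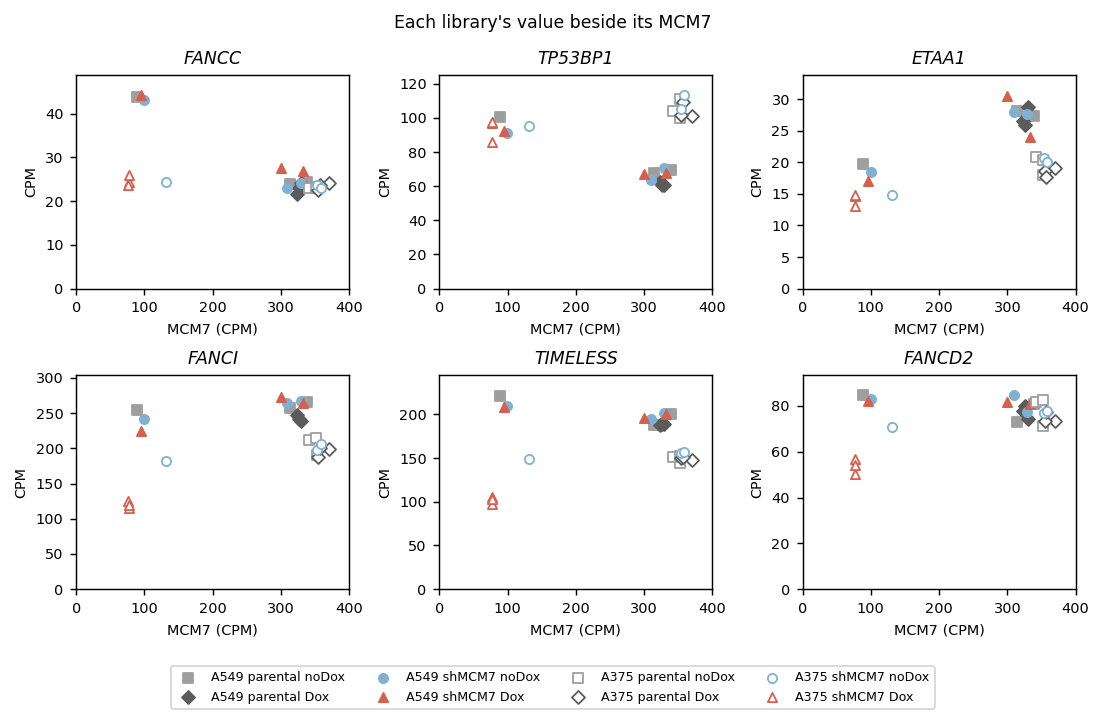
CPM of 6 genes (vertical axis) against CPM of MCM7 (horizontal axis) in each of the 12 A549 (filled) and 12 A375 (open) libraries, with the label group as marker. The 3 A549 libraries of MCM7 under 100 CPM carry different markers and have FANCC at 43.1 to 44.2 CPM, whereas TIMELESS and FANCD2 are low in the A375 shMCM7 Dox libraries and not in them. FANCI, low in the same A375 libraries, is at 224, 242 and 254 CPM in them, the first being the lowest of the 12 A549 libraries.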

How the data were processed

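RNA of A375 and A549 cells was sequenced by the authors in 24 libraries. Per the labels, the submitters' processing notes name bcl2fastq 2.19, Trimmomatic, STAR 2.7.1, featureCounts, edgeR and the build GRCh38.p10, and the study's methods name STAR, DESeq2 and edgeR. The authors deposited raw counts of reads per gene, without normalization, for 21386 Ensembl identifiers, of which 21349 were found in GENCODE 29 (GRCh38), used here for names, positions and exon lengths. The strand setting of the counting is not given in the sources used here, so values of overlapping genes are uncertain, and p-values measure the spread between biological replicates. Promoter windows are from RefSeq (GRCh38.p14).

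The 42 genes and the other lists were chosen with earlier results of these data known. A549 libraries of low and high MCM7 were not compared as groups, since that would group samples by a measured outcome, but 1 alternative left out the 3 libraries of low MCM7 from the comparisons by label. Counts were tested over all genes in R 4.3.3 with edgeR 4.0.16 (TMM, filterByExpr, quasi-likelihood test, prior count 0.125), with the groups compared in each fit and all 12 A375 libraries for the difference of the Dox effects. A gene passed at a Benjamini-Hochberg FDR under 0.05. The second rule was the study's (at least 1.5-fold, p under 0.01, FDR under 0.05). Genes were named in full if they were among the 14 of smallest p with FDR under 0.05 in A375 shMCM7 Dox against noDox, or past the 1.5-fold thresholds, or were CHEK1, ATR, BRCA1 or FANCD2. Of the other lists, the 4 of smallest p were named, except for genes not reported here. Steps were tested on simulated data.

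Total counts lay between 146656792 and 283721575 for A375 and between 17911338 and 23452823 for A549 libraries, so that 3 counts equal 0.0106 to 0.0205 and 0.128 to 0.167 CPM. Replicates differed by more than sampling noise (chi-square per degree of freedom at least 1.95). Same-numbered libraries correlated across genes in their deviations from group means for A375 shMCM7 Dox and noDox (r = 0.338, 0.195 and 0.340). They also did for shMCM7 noDox and parental noDox (r = 0.514, 0.488 and 0.531), all over 0.1. Other pairs had mixed signs. In A375, r was 0.278, -0.0997 and 0.510 for parental Dox and noDox, and -0.127, -0.296 and 0.464 for shMCM7 Dox and parental Dox. In A549, r was 0.216, -0.689 and -0.717 for shMCM7 Dox and noDox, and 0.0132, -0.0341 and -0.0939 for parental Dox and noDox. The main fits did not use this pairing, and the replicate number entered as a block only in an alternative. The pairing comes from the numbers in the labels. Alternatives were DESeq2 1.42.0 size factors, its Wald test, no filter, at least 10 counts in every library, a fit over 12 libraries, a replicate block, and omission of each library. No library was left out of the main values.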

Additional observations from a re-analysis of the deposited data

Results flagged for a closer look

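In A375, 14 of the 42 genes responded differently to Dox in shMCM7 than in parental cells, by edgeR's test of the difference itself (FDR under 0.05), which is what put them here. The log2 differences were -0.59 in TIMELESS, -0.64 in FANCI, -0.49 in FANCG, -0.44 in MDC1, -0.37 in EXO1, -0.43 in MRE11, -0.41 in FANCD2, -0.35 in FANCE, -0.30 in FANCA, -0.23 in RAD51C, -0.24 in BRCA1 and -0.22 in BRIP1. They were 0.44 in ATM and 0.31 in ATR. These differences pair a fall or rise in shMCM7 cells with parental values that did not pass the test in any of the 42 genes. Groups of 3 libraries were not tested for outliers.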

How the results depend on the processing

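For the A375 shMCM7 comparison, 18 of the 27 genes that passed did so in each of the 12 alternatives, and 9 lost the call in at least 1 (ATR, BRCA2, CHEK2, ETAA1, FANCB, FANCL, FANCM, RAD17 and RAD50). Leaving out 1 library at a time, 18 to 25 of the 42 genes were lower, 1 to 3 higher and 1 to 2 past the 1.5-fold thresholds downward. For the difference of the Dox effects, 11 of 14 passed in each of the 17 alternatives, and 0 to 2 genes were past the 1.5-fold thresholds with a library left out, and 1 with no filter. In shMCM7 noDox against parental noDox, the replicate block gave 1 of the 42 genes higher and 3 lower, against 0 without it. Over all 16093 genes it gave 1352 higher and 1226 lower. Leaving out a library gave 0 to 1 of the 42 lower. In shMCM7 Dox against parental Dox, 0 to 4 were higher with a library left out, and in A549 parental cells 0 to 2. The block moved 0 other counts by over 1.5 times. In the A375 shMCM7 comparison it gave 26 lower and 3 higher.

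Values that did not pass changed sign in 4 genes when a library was left out. TIPIN ran from -0.040 to 0.073 and RAD9A from -0.10 to 0.022 in the A375 shMCM7 comparison, and FANCC from -0.0028 to 0.069 and NBN from -0.032 to 0.073 in the difference of the Dox effects. The cause was not tested. For the level per kilobase, the longest transcript moved 38 of 42 values by more than the SD. A549 libraries had fewer counts than A375 ones. By label, edgeR and DESeq2 each called 0 of the 42 genes there. The parts of depth, of spread between replicates and of the labels in that count were not tested.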
